A study of Homo sapiens with 28 samples.

Results

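FOXO1, FOXO3 and FOXO4 are 3 of the forkhead box O transcription factors. They were taken by gene symbol from a table of 35488 genes measured in SK-N-MC, an established Ewing sarcoma line that carries EWS-FLI1, a fusion protein with the DNA-binding part of FLI1, an ETS factor. All 28 libraries came from cells with a doxycycline-inducible short hairpin RNA, grown with 100 ng/ml doxycycline for 24 or 48 h. At each time 5 libraries carried a scrambled hairpin (shScramble, the control), 3 a hairpin against FLI1 (shFLI1), and 3 each 1 of 2 hairpins against the chromatin remodeller CHD4 (shCHD4#1 and shCHD4#2). For shScramble at 48 h, title and treatment name the control but the genotype field names CHD4 knockdown, and CHD4 stood in these libraries at 9343 to 13100, as in the 24 h shScramble libraries (10099 to 12879). All groups shared the line and the drug.

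FOXO proteins bind a short forkhead motif in DNA and mostly activate genes, among them genes of cell cycle arrest, cell death, oxidative stress defence, fasting metabolism and autophagy. Insulin and growth factor signals act on them through PI3K and AKT: AKT phosphorylates FOXO, 14-3-3 proteins hold it in the cytoplasm, and its targets are no longer transcribed. FOXO activity is therefore set largely by protein modification and location, which RNA does not show. In Ewing sarcoma, FOXO1 has been described as a gene that EWS-FLI1 represses.

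In the GENCODE 29 annotation on GRCh38, FOXO1 (ENSG00000150907) lies on the minus strand of chromosome 13 from 40469953 to 40666597, FOXO3 (ENSG00000118689) on the plus strand of chromosome 6 from 108559835 to 108684774, and FOXO4 (ENSG00000184481) on the plus strand of chromosome X from 71096197 to 71103535. RefSeq lists 4 start sites for FOXO3 and 1 each for FOXO1 and FOXO4, and only the most upstream of a gene was read. The 250 bases before that site (GRCh38.p14) are printed on the strand of the gene. They are shown because all 3 genes moved together when a factor of the ETS family was silenced. They cover chr13:40666642-40666891, chr6:108559575-108559824 and chrX:71095601-71095850. Capitals mark the ETS core GGAA on either strand (TTCC on the other).
FOXO1: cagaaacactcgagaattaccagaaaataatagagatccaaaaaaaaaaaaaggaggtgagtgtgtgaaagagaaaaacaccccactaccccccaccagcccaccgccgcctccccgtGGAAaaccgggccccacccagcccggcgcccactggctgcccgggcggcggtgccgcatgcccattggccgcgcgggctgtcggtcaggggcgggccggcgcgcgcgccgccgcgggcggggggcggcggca
FOXO3: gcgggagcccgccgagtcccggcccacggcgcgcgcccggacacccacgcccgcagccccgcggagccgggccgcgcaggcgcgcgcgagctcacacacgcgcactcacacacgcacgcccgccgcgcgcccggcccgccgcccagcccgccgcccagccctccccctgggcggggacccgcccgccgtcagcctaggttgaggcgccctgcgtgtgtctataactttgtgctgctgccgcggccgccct
FOXO4: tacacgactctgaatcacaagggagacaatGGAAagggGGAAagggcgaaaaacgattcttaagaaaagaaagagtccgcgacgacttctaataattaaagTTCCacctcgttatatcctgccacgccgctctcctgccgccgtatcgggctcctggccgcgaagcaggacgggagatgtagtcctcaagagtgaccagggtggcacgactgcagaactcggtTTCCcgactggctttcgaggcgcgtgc
The core is short and common. In windows of 300 bases that add the first 50 after the start, FOXO1 held 1 core, FOXO3 held 3, none of them in the stretch shown, and FOXO4 held 4. Of 27303 such windows in RefSeq, 95.5 percent held at least 1, 66.1 percent at least 3 and 46.1 percent at least 4. The doubled core GGAAGGAA, on either strand and counted also within the single cores, was in none of the 3 windows and in 3.59 percent of all. The forkhead motif GTAAACA, on either strand, was found once, in FOXO4, 24 bases after the start and so outside the stretch shown. It was in 3.44 percent of windows. Such matches describe the letters of these windows and show no binding.

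The libraries held 46102707 to 64775441 reads. Values are normalised counts, the gene's reads divided by a size factor per library. With shScramble and each CHD4 hairpin, replicates 1 and 2 (12 libraries, called the first kind here) had 0.436 to 0.511 percent of reads on processed pseudogenes, against 0.339 to 0.383 percent in the other 16 (the second kind), which include every shFLI1 library. The labels name no batch, so the shFLI1 fold changes of FOXO1, FOXO3, FOXO4 and the genes related to or overlapping them are given against all shScramble libraries and against those of the second kind. Other results use all shScramble libraries. FLI1 fell by 1.16 on the log2 scale with shFLI1 at 24 h and by 1.17 at 48 h, and CHD4 fell by 1.86 to 2.07 with its hairpins. Reads counted to FLI1 can come from the fusion and from the normal gene. Ewing sarcoma markers such as NKX2-2 and PRKCB were present in shScramble. All 11, a list that appears to hold FLI1 itself, were lower with shFLI1 at 48 h, where 31.7 percent of all genes fell. Their sums were 30489 to 31120 against 65164 to 83107. Immune markers summed to at most 63.8 in the 24 h shScramble libraries and 340 with shFLI1, of which PTPRC made nearly all, while CD3E averaged 0.433 over all libraries.

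FOXO1 had the largest fold changes of the 3 genes with shFLI1. In the shScramble libraries of 24 h its normalised counts were 1060.0 and 1109 in the first kind and 644, 717 and 571 in the second. With shFLI1 they were 2119.5, 2551 and 2222, so every shFLI1 library stood above every control. At 48 h shScramble gave 1079, 1146, 605, 663 and 719.7, and shFLI1 gave 5304, 4977 and 4508, again without overlap and above every 24 h library too. The log2 fold change was 1.53 at 24 h (SE 0.20, a 2.89-fold rise, limma adjusted p = 1.98e-05) and 2.59 at 48 h (SE 0.21, 6.04-fold, adjusted p = 9.18e-08). Against second-kind controls it was 1.84 and 2.89.

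FOXO3 had 3853, 4494, 2980.5, 3024 and 2982 normalised counts with shScramble at 24 h and 5121, 5579.6 and 5875 with shFLI1. The groups did not overlap, and the nearest control was the higher one of the first kind. At 48 h shScramble gave 3931, 4574, 3266, 3047 and 3163, and shFLI1 gave 10681, 10644 and 9621, again all above every control. The rise was 0.69 at 24 h (SE 0.15, 1.61-fold, limma adjusted p = 0.00128) and 1.54 at 48 h (SE 0.11, 2.9-fold, adjusted p = 3.69e-08). Within the second kind it was 0.88 and 1.71.

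The normalised counts of FOXO4 at 24 h were 367, 391, 402, 419 and 472 with shScramble and 786, 793 and 909 with shFLI1. At 48 h they were 333, 507, 447, 492 and 461 against 1097, 979 and 1070.5. Every shFLI1 library was above every control at both times, and the lowest control of each time was of the first kind. The log2 rise was 1.02 (SE 0.15, 2.02-fold, limma adjusted p = 5.72e-05) and 1.24 (SE 0.16, 2.36-fold, adjusted p = 1.13e-05), or 0.94 and 1.17 within the second kind.

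**Figure D1:**
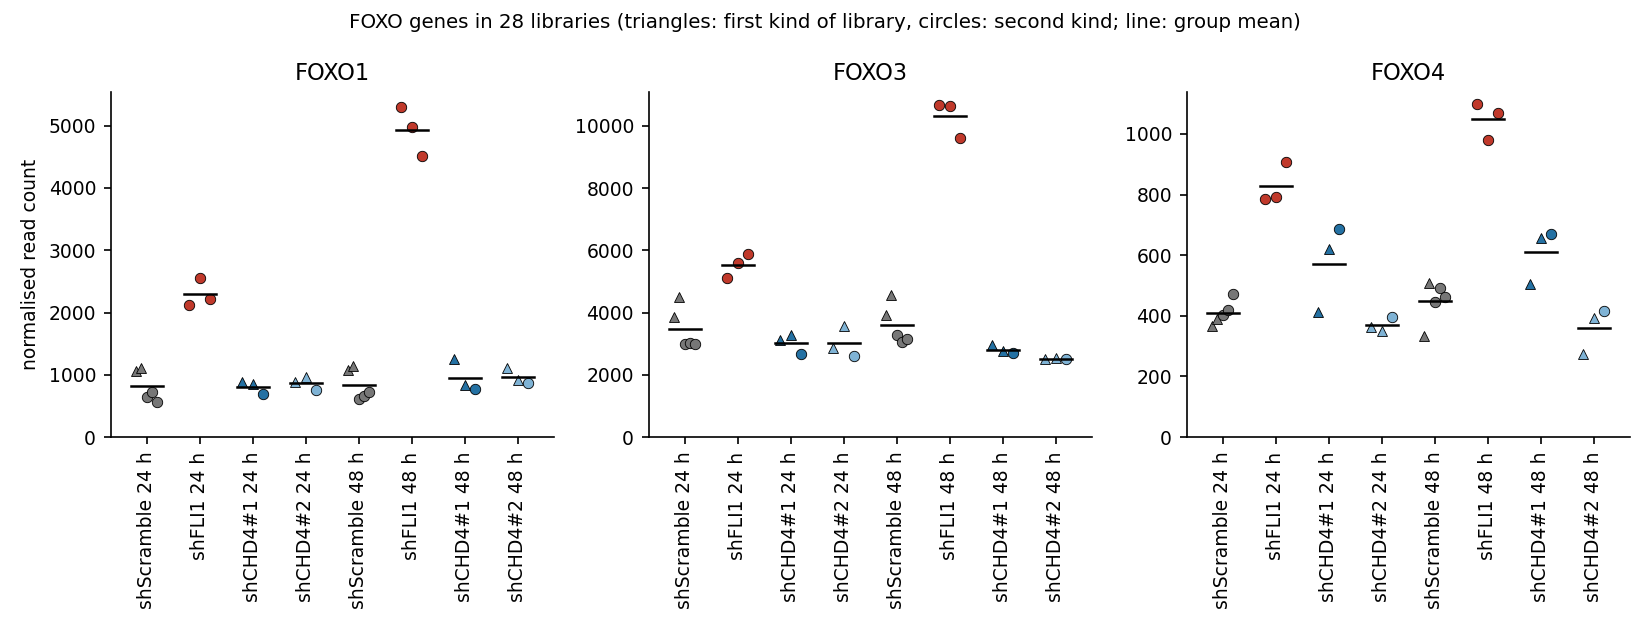
Normalised counts of FOXO1, FOXO3 and FOXO4 in each of the 28 libraries on a linear axis, by hairpin and time. Triangles are libraries of the first kind, circles those of the second, and lines are group means. The shFLI1 libraries sit above all others for each gene, FOXO1 from 2119.5 to 5304, and FOXO3 is lowest with shCHD4#2 at 48 h.

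All 3 genes thus rose with shFLI1 at both times. Of the 21025 genes tested, 24.2 percent rose with shFLI1 at 24 h and 32.2 percent at 48 h, and 23.7 and 31.5 percent had every shFLI1 library above every control, so a rise as such was common. In size, FOXO1 at 48 h lay above 95.5 percent of genes, FOXO3 above 89.3 percent and FOXO4 above 85.7 percent. Beside these rises, the share of mitochondrial ribosomal RNA in the 48 h libraries was 22.1 to 22.5 percent for shFLI1 and 16.17 to 17.98 percent for shScramble. At 24 h it was at most 17.81 percent for shScramble and up to 19.88 percent for shFLI1, again without overlap. The summed epithelial markers, mostly KRT18, went the other way, from 8254 to 10722 in shScramble to 4111 to 5252.5 with shFLI1 at 24 h and from 9405 to 14835.5 to 4777.5 to 5180.1 at 48 h. CDH1, a defining epithelial marker, averaged 3.02 in shScramble and 269 with shFLI1 at 48 h (SD 445, n = 3). The part of either in the rises was not tested. In cultures read in bulk, fewer cells of a kind and less RNA per cell cannot be told apart.

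From 24 to 48 h the shFLI1 response grew for FOXO1 by 1.06 on the log2 scale (SE 0.31, limma adjusted p = 0.0167) and for FOXO3 by 0.84 (SE 0.19, adjusted p = 0.00266). For FOXO4 the growth was 0.22 with a 95% interval of -0.24 to 0.68 (adjusted p = 0.56). The signed fold change was higher at 48 h for 7.22 percent of genes and lower for 9.44 percent. The call for FOXO1 was lost without shFLI1 24h replicate 1 (1.01, adjusted p = 0.0514). Whether the growth differed between the 3 genes was not tested.

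The CHD4 hairpins left all 3 genes below their shFLI1 level. Compared directly, shFLI1 stood above the mean of both CHD4 hairpins for FOXO1 (1.46 at 24 h and 2.38 at 48 h), FOXO3 (0.88 and 1.96) and FOXO4 (0.86 and 1.17), with limma adjusted p from 2.61e-09 to 0.000153. In this comparison 28 and 32.9 percent of genes were higher. The authors' deposited table for shFLI1 at 48 h lists log2 fold changes of 2.62 for FOXO1, 1.56 for FOXO3 and 1.21 for FOXO4, with adjusted p of 4.25e-29, 2.39e-13 and 0.00501.

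Against all shScramble libraries, no difference of FOXO1 passed the test with a CHD4 hairpin. With shCHD4#1 its counts were 887, 851 and 687 at 24 h and 1259, 843 and 765 at 48 h. With shCHD4#2 they were 887, 964 and 758 and then 1116, 923 and 864. These values overlapped those of shScramble, and the log2 differences ran from 0.02 to 0.24, with 95% intervals that reached from -0.40 to 0.69 (limma adjusted p from 0.397 to 0.959). At 24 h both turned below 0 with the replicate number as a block (-0.18 and -0.075) and with a term for library kind (-0.12 and -0.011), and neither was called. Among second-kind libraries alone, with 1 library of the hairpin, shCHD4#2 at 48 h passed at 0.39 (limma adjusted p = 0.0428).

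FOXO3 was lower with CHD4 silenced at 48 h. With shCHD4#1 it had 2955, 2764 and 2716.5 counts and with shCHD4#2 2504, 2531 and 2495. The lowest shScramble library had 3047, and how many of all genes lay wholly below shScramble is not reported here. The fall was 0.34 with shCHD4#1 (SE 0.11, limma adjusted p = 0.0394) and 0.50 with shCHD4#2 (SE 0.11, adjusted p = 0.00346), where 15.5 and 20.3 percent of genes fell. The fall with shCHD4#2 was called in 21 of 21 alternative settings, that with shCHD4#1 in 10. Leaving out shScramble 48h replicate 1 (-0.30, adjusted p = 0.0713), shCHD4#1 48h replicate 1 (-0.37, 0.0587), replicate 2 (-0.33, 0.122) or replicate 3 (-0.31, 0.115) each ended the latter call. With shCHD4#2 at 48 h FLI1 itself fell by 0.34 (adjusted p = 0.0291). The summed Ewing sarcoma markers, which appear to count FLI1 too, stood at 45940 to 58351. The part of either in the fall of FOXO3 was not tested. At 24 h FOXO3 had 3112, 3282 and 2660.3 counts with shCHD4#1 and 2876, 3561 and 2612 with shCHD4#2, overlapping the controls, and the differences of -0.18 and -0.19 did not pass (limma adjusted p = 0.47 and 0.473). In each same-numbered pair the library with the hairpin was below shScramble. With the replicate number as a block the differences did not pass either. That fit also held the shFLI1 libraries, which did not correlate above 0.045 with the shScramble library of their number. It therefore did not test these pairs alone. With a term for library kind the differences passed, at -0.28 (limma adjusted p = 0.0265) and -0.29 (0.0225).

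FOXO4 differed between the CHD4 hairpins. With shCHD4#1 its counts were 413, 619.7 and 685 at 24 h and 505, 657 and 671 at 48 h. With shCHD4#2 they were 365, 349 and 398, then 275, 392.1 and 417. The log2 difference between hairpins, a comparison added after these values had been seen, was 0.60 at 24 h (limma adjusted p = 0.0334) and 0.77 at 48 h (adjusted p = 0.00455), where 5.62 and 19.2 percent of genes were higher with shCHD4#1. For FOXO1 and FOXO3 at 48 h the same comparison gave -0.04 and 0.16 (adjusted p = 0.901 and 0.341). The 24 h call was lost without shCHD4#1 24h replicate 2 (0.52, adjusted p = 0.149) or 3 (0.45, 0.135) and without shCHD4#2 24h replicate 1 (0.59, 0.0778), 2 (0.55, 0.118) or 3 (0.65, 0.0545).

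Against shScramble, the shCHD4#1 difference of FOXO4 was 0.45 at both times and did not pass (limma adjusted p = 0.0612 and 0.0516). With the replicate number as a block it did, at 0.53 (adjusted p = 0.0227) and 0.52 (0.0283). That block fit also held the shFLI1 libraries, so it did not test same-numbered pairs alone. In each such pair FOXO4 was above shScramble with shCHD4#1 and below it with shCHD4#2. The shCHD4#2 values of -0.14 and -0.32 did not pass (adjusted p = 0.615 and 0.141). The authors' deposited tables give adjusted p = 1 for all 3 genes with both CHD4 hairpins. What minimum fold those values test against is not given in the sources used here.

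**Figure D2:**
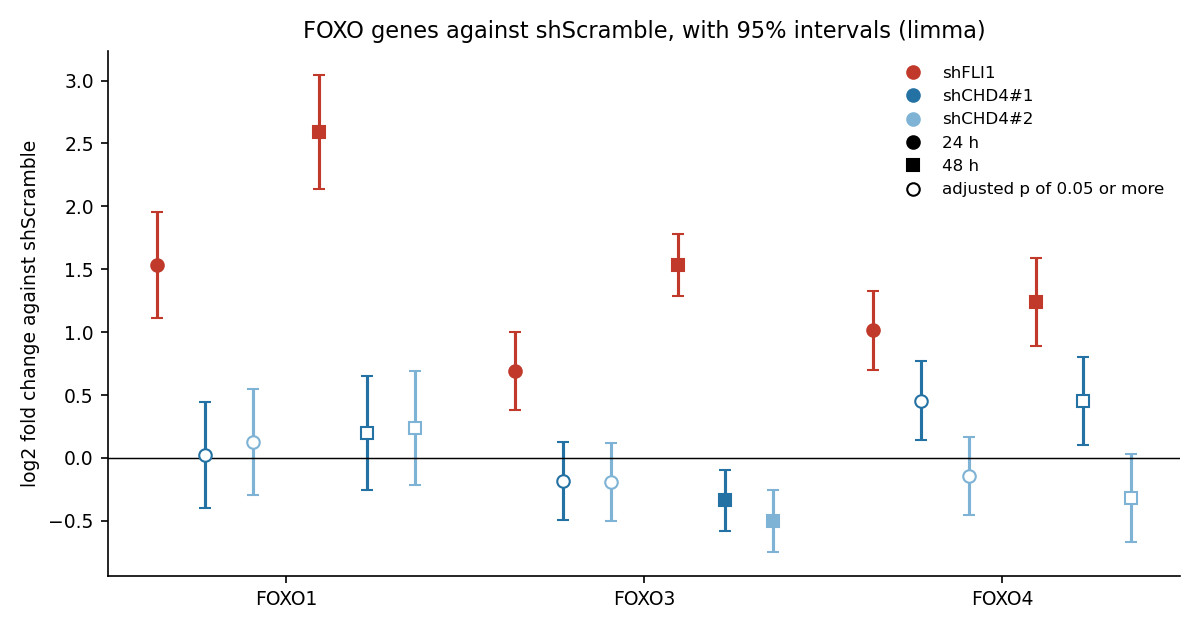
Log2 fold changes against shScramble with 95% intervals (y axis) for each gene. Colours are hairpins, circles 24 h and squares 48 h, and open symbols have an adjusted p of 0.05 or more. The shFLI1 points lie from 0.69 to 2.59, while the CHD4 points lie between -0.50 and 0.45.

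In order of level, the 6 groups without shFLI1 formed an unbroken run for FOXO1, each overlapping the next, from 808 ± 107 (SD, n = 3) with shCHD4#1 at 24 h to 968 ± 132 with shCHD4#2 at 48 h. shFLI1 at 24 h (2297 ± 225) and at 48 h (4929.9 ± 400.1) stood apart above them. For FOXO4 the run went from 361 ± 75.9 with shCHD4#2 at 48 h to 611 ± 92.1 with shCHD4#1 at 48 h, with shFLI1 at 829 ± 69.0 and 1049 ± 62.2 apart. For FOXO3 shCHD4#2 at 48 h (2510.1 ± 18.3) stood apart at the bottom as well, and shFLI1 at 5525 ± 379.9 and 10315 ± 602 at the top. Of the other 5 groups each overlapped the next in order, up to 3596 ± 645 with shScramble at 48 h. How common such gaps are among all genes was not counted.

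Per kilobase of merged exons, which puts genes of different length on 1 scale, FOXO3 led everywhere. In shScramble at 48 h FOXO3 stood at 466 ± 83.6 counts per kilobase, FOXO1 at 135 ± 40.3 and FOXO4 at 130.0 ± 19.9. Their sum was 731 ± 121 there and 2431 ± 139 with shFLI1, against 699.5 ± 119 and 1325 ± 81.5 at 24 h. FOXO1 made up 18.2 percent of the sum in shScramble at 48 h and 32.5 percent with shFLI1, FOXO3 63.6 and 55.0 percent, and FOXO4 18.2 and 12.5 percent. The share of FOXO1 thus went up and that of FOXO3 down although both genes rose.

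A two-sided exact permutation test over libraries gave p = 0.0179 for the FOXO1 and the FOXO3 share at each time, the smallest its 56 splits allow, or 0.0402 adjusted over 18 comparisons. The shares of a library add up to the whole, so these tests are not independent. The adjusted value rests on several comparisons tied at the smallest p. At 24 h FOXO1 went from 18.5 to 27.8 percent and FOXO3 from 64.0 to 54.0 percent. FOXO4 stood at 17.5 and 18.2 percent (exact permutation p = 0.857, adjusted 0.929). Its second-kind controls of 24 h, from 19.24 to 22.27 percent, lay above the shFLI1 libraries, from 16.89 to 19.09 percent. Those of the first kind, at 12.97 and 13.73 percent, lay below them. The FOXO4 share at 48 h did not pass (exact permutation p = 0.0714, adjusted 0.143). Its second-kind controls, from 19.9 to 22.2 percent, lay above the shFLI1 libraries, from 11.5 to 13.6 percent. Of the first-kind controls 15.9 percent lay above them and 12.4 percent did not.

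In 3 of the 4 comparisons with CHD4 hairpins the FOXO3 share was also lower, at 52.4 percent with shCHD4#1 and 55.6 percent with shCHD4#2 at 48 h and 56.9 percent with shCHD4#1 at 24 h (each exact permutation p = 0.0179, adjusted 0.0402). With shCHD4#2 at 24 h it was 61.05 percent and did not pass (exact permutation p = 0.125, adjusted 0.173). The FOXO1 share with shCHD4#2 at 48 h was 26.6 percent (adjusted exact permutation p = 0.0402). Without shScramble 48h replicate 2, 4 or 5 the unadjusted exact permutation p of that FOXO1 share was 0.0571.

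**Figure D3:**
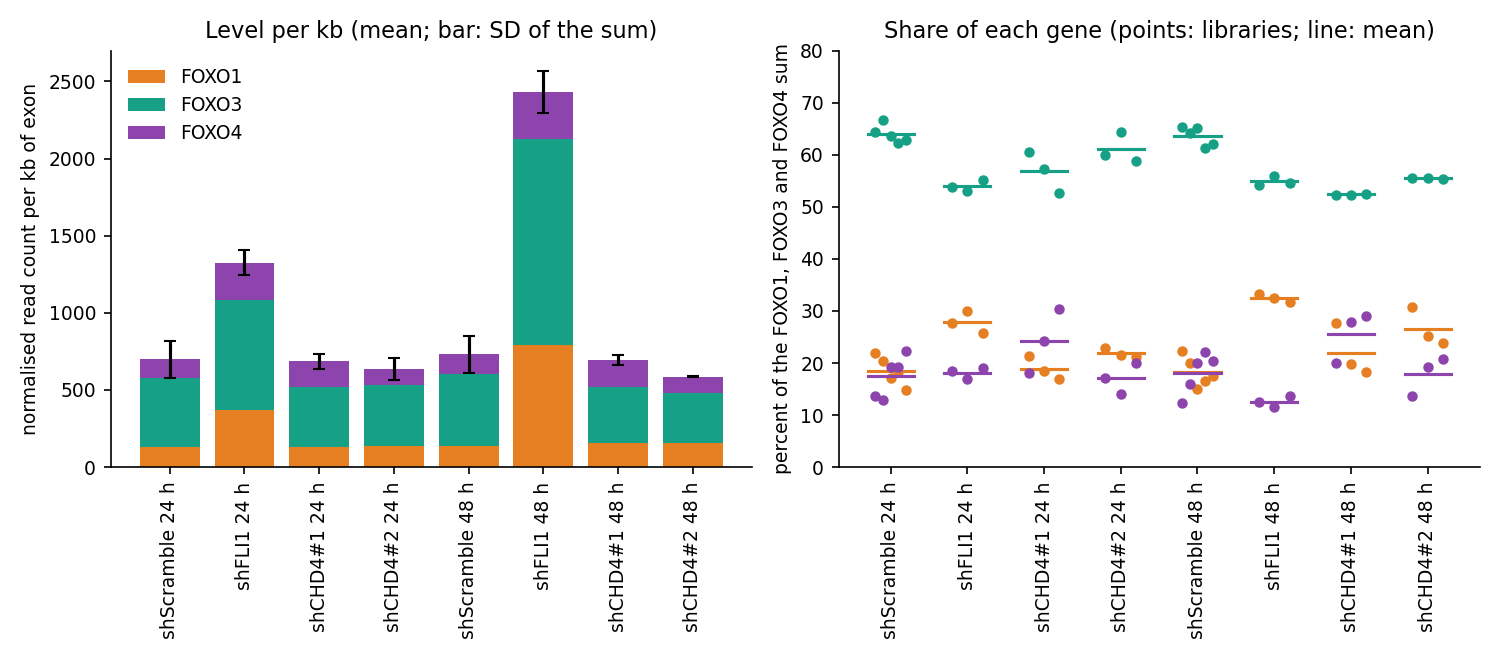
Left, mean normalised counts per kilobase of exon stacked by gene for the 8 groups, with the SD of the sum as error bar. Right, the share of each gene in that sum in percent, with libraries as points and group means as lines. FOXO3 holds 63.6 percent in shScramble at 48 h and 55.0 percent with shFLI1, and FOXO1 goes from 18.2 to 32.5 percent.

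FOXO6, the remaining forkhead box O gene, rose by 1.49 on the log2 scale with shFLI1 at 24 h and by 0.79 at 48 h (limma adjusted p = 3.99e-06 and 9.42e-05), a response that was smaller at 48 h by -0.70 (adjusted p = 0.0229). Against second-kind controls the rises were 1.45 and 0.86. FOXO6 also rose with shCHD4#1 at 48 h (1.04, limma adjusted p = 6.96e-05) and stood at 0.10 with shCHD4#2 (adjusted p = 0.582). At 24 h it rose with shCHD4#1 (0.70, limma adjusted p = 0.0118), a call lost without shCHD4#1 24h replicate 2 (0.54, 0.0994). With shCHD4#2 at 24 h it was at 0.50 (adjusted p = 0.0611), and passed without shScramble 24h replicate 4 (0.57, 0.0482).

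FOXO3B, on chromosome 17 and annotated as a processed pseudogene, shares 64.2 percent of its 50-base stretches with FOXO3, and how shared reads were counted is not given in the sources used here. It had -0.10 with shFLI1 at 24 h (adjusted p = 0.417) and rose by 0.51 at 48 h (adjusted p = 0.000812), both smaller than the FOXO3 values. Against second-kind controls FOXO3B was at -0.18 (limma adjusted p = 0.137) and 0.42 (0.00141). LINC00598 overlaps the 3' part of FOXO1 on the same strand, and rose by 0.92 and 2.04 (limma adjusted p = 0.00513 and 7.27e-05), or by 1.18 and 2.48 against second-kind controls. Reads of the overlapping spans may have been counted to either gene. FOXO1, FOXO3 and FOXO4 share no 50-base stretch with each other.

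Other forkhead genes were called in both directions with shFLI1 at 48 h: 7 of the 22 tested rose and 6 fell, or 31.8 and 27.3 percent beside 32.2 and 31.7 percent of all genes. FOXC1, a factor of mesenchymal development, rose from 47.4 to 86.5 normalised counts in shScramble to 2191 to 3852 (log2 5.60). FOXD1 (3.67), FOXN3 (1.18) and FOXP4 (0.99) rose too. FOXM1, which drives genes of mitosis, fell by 1.07, while at 24 h its value was 0.28 (limma adjusted p = 0.0979).

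Upstream of FOXO, 16 of 32 tested genes of the PI3K and AKT pathway rose with shFLI1 at 48 h and 11 fell, or 50 and 34.4 percent beside 32.2 and 31.7 percent of all genes. The median was 0.36 against 0.01 over all genes. Among receptors and adaptors, INSR, the insulin receptor, rose by 0.84, and IRS2, its adaptor, fell by 1.61 from 11751 to 13678 normalised counts in shScramble to 3996 to 4313. IGF1R rose by 0.43, a call lost without shFLI1 48h replicate 3 (0.39, limma adjusted p = 0.0618).

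Of the kinase subunits, PIK3CG rose by 4.73, from at most 33.9 counts to at least 439. AKT2 rose by 0.33, while AKT1 was at -0.23 (limma adjusted p = 0.0991). Among the phosphatases and inhibitors that oppose AKT, INPP4B rose by 2.96 and PIK3IP1 by 3.10. SGK1, a kinase related to AKT that also phosphorylates FOXO, fell by 1.96 at 24 h and rose by 1.44 at 48 h, a difference of 3.40 between times. SGK2 rose by 2.25, with 47.2, 55.2 and 217 counts in the 3 libraries and 1.56 as the lowest value with 1 library left out.

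With both CHD4 hairpins 4 of the 32 genes fell and 1 rose at 48 h, where 6.24 percent of all genes fell and 5 percent rose with both. SGK1 fell by 1.62 with shCHD4#1 and 2.17 with shCHD4#2, and PIK3R3, a regulatory subunit, by 0.87 and 1.85. SGK3 and PIK3IP1 also passed as lower and PDPK1 as higher with both hairpins, SGK3 and PDPK1 being named after their values were seen. PIK3IP1 lost its call with shCHD4#1 without shCHD4#1 48h replicate 1 (-0.63, limma adjusted p = 0.114).

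Among 34 tested genes whose proteins modify, hold, export or degrade FOXO, 16 fell and 9 rose with shFLI1 at 48 h, or 47.1 and 26.5 percent beside 31.7 and 32.2 percent of all genes. The median was -0.21 against 0.01. XPO1, the exporter that carries FOXO out of the nucleus, fell by 1.01. PRMT1, which methylates FOXO1, fell by 1.37. KAT2B, an acetyltransferase, rose by 2.14 and STK3, a kinase of the Hippo pathway, by 1.05. CDK1 rose by 0.55 at 24 h and fell by 0.74 at 48 h. With both CHD4 hairpins 7 of the 34 fell at 48 h, XPO1 and CDK1 among them, and 0 rose. Of all genes 6.24 percent fell and 5 percent rose with both.

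The known target genes of FOXO were read in 5 lists, 64 tested genes together. With shFLI1 29 rose and 11 fell at 24 h, that is 45.3 and 17.2 percent beside the 24.2 and 22.5 percent of all genes. At 48 h 39 rose and 13 fell, or 60.9 and 20.3 percent beside 32.2 and 31.7 percent. The median log2 fold change was 0.30 at 24 h and 0.71 at 48 h, against 0.00 and 0.01 over all genes. Over the alternative settings the risen genes numbered 23 to 32 at 24 h and 31 to 42 at 48 h. PPARGC1A, TNFSF10, KLF4, IGFBP3 and TRIM63 had a mean under 10 over the other 25 libraries and passed the filter through shFLI1 at 48 h alone, so they had to be high there. Without these 5, 35 of 59 rose and 13 fell at 48 h, with a median of 0.63. The counts and medians per list given below still include them. Many of the target genes answer to other factors too, and the lists were chosen with results of these data known.

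**Figure D4:**
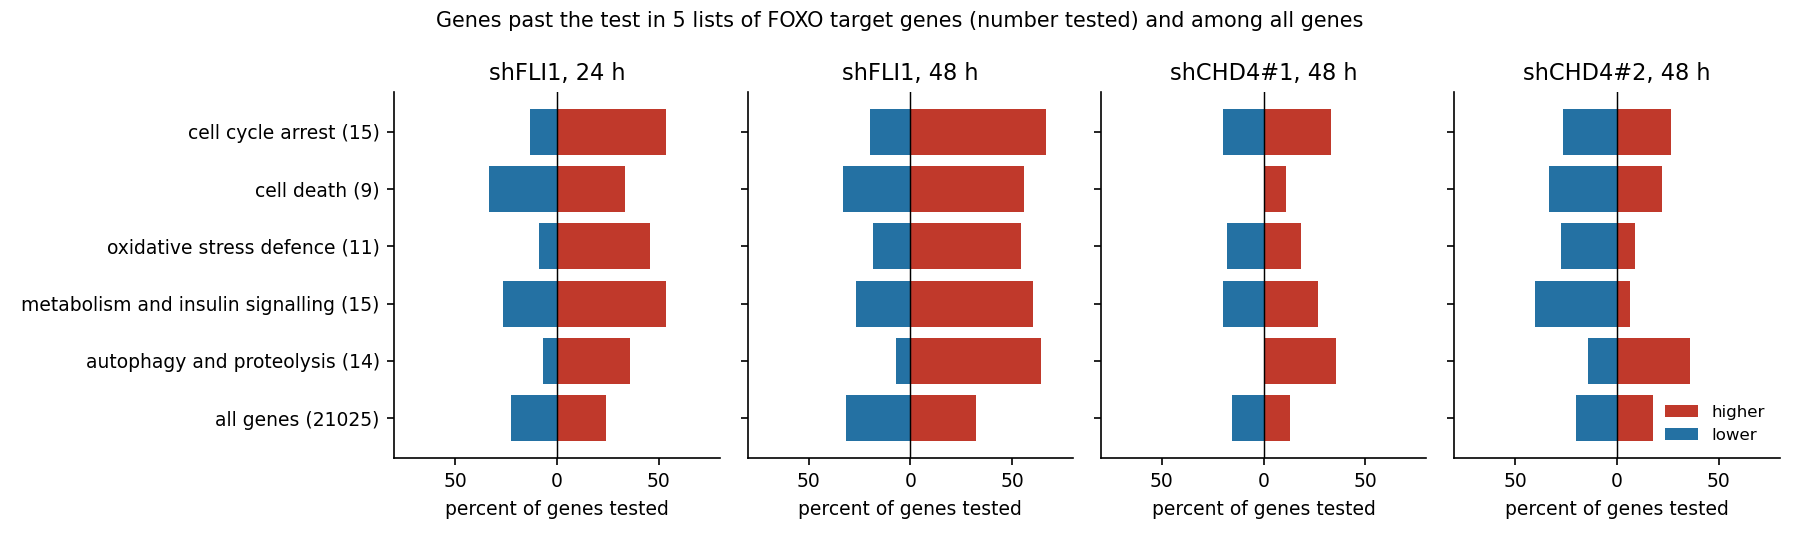
Percent of tested genes that were higher (right of 0) or lower (left of 0) at a limma adjusted p under 0.05, for the 5 target lists and all genes. The panels are shFLI1 at 24 and 48 h and both CHD4 hairpins at 48 h. With shFLI1 at 48 h more genes rose than fell in each of the 5 target lists, and 39 of 64 rose in all. These counts include 5 genes that passed the filter through that group alone and had to be high there. Without them 35 of 59 rose.

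Of 15 genes of cell cycle arrest 10 rose and 3 fell with shFLI1 at 48 h, with a median of 1.202. That is 66.7 and 20 percent beside 32.2 and 31.7 percent of all genes. KLF4, 1 of the 15, passed the filter through that group alone and had to be high there. CDKN1A, the inhibitor p21, had 19.6 to 50.9 normalised counts in shScramble and 549 to 898 with shFLI1 (log2 4.63). CDKN1C rose by 4.77, to between 5909 and 7379 counts, and CDKN1B, the inhibitor p27 and a classical FOXO target, by 1.66. All 3 inhibitors had also risen at 24 h, by 3.31, 3.98 and 1.64, without overlap with the controls.

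CCNG1 and CCNG2, unconventional cyclins linked to arrest, rose by 0.86 and 1.29, and BTG1, an inhibitor of proliferation, by 2.38. GADD45B rose by 2.26 at 48 h, and KLF4, which had to be high there to pass the filter, stood at 3.66. At 24 h KLF4 was at 0.03 and GADD45B at -0.48 (limma adjusted p = 0.965 and 0.106). RBL2 was at 0.15 (adjusted p = 0.127) at 48 h.

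Of 9 cell death genes 5 rose and 3 fell at 48 h, or 55.6 and 33.3 percent beside 32.2 and 31.7 percent of all genes. BCL2L11, which encodes BIM, rose by 1.81, from 808 to 1054 counts to 2891 to 3695, after a 24 h value of 0.34 (limma adjusted p = 0.105). TNFSF10, the death ligand TRAIL and 1 of the 9, passed the filter through shFLI1 at 48 h alone. It had 0 to 1.79 counts in shScramble and 45.7 to 128 with shFLI1. BNIP3L rose by 1.15 and TXNIP, a brake on glucose uptake, by 1.40. BCL6 fell by 0.80 and BNIP3 by 0.78, the latter not called without shFLI1 48h replicate 1 (-0.73, adjusted p = 0.0613).

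Of 11 genes of oxidative stress defence 6 rose and 2 fell at 48 h, or 54.5 and 18.2 percent beside 32.2 and 31.7 percent of all genes. SELENOP, a selenium carrier, rose by 2.81 to 13374 to 17209 counts, and CAT, catalase, by 0.69. SESN1 rose by 0.81 and SESN3 by 1.41, while SESN2 was at 0.09 (limma adjusted p = 0.674). SOD2, the mitochondrial superoxide dismutase and a textbook FOXO3 target, was at -0.21 (adjusted p = 0.217). PRDX5 rose by 0.53 and GPX1 fell by 0.76. PPARGC1A passed the filter through shFLI1 at 48 h alone. It had 28.3, 35.6 and 1242 counts in the 3 libraries, and its log2 value of 5.19 was 3.44 without shFLI1 48h replicate 3.

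Of 15 metabolic genes 9 rose and 4 fell at 48 h, or 60 and 26.7 percent beside 32.2 and 31.7 percent of all genes. PCK1, the gluconeogenic enzyme, rose by 5.81 from 9.16 to 44.3 counts to 654 to 1251, and DEPP1, a small FOXO-induced gene, by 4.57. PNPLA2, the adipose triglyceride lipase, rose by 1.18, while KLF15 fell by 1.31 and TRIB1 by 0.97. PDK4 was below the filter of a mean of 10 counts and was not tested: it was listed at 0 in all 5 shScramble libraries of 48 h and had 11.8 to 43.6 counts with shFLI1.

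Of 14 tested genes of autophagy and proteolysis 9 rose and 1 fell at 48 h. That is 64.3 and 7.14 percent beside 32.2 and 31.7 percent of all genes. TRIM63, 1 of the 14, passed the filter through shFLI1 at 48 h alone. FBXO32, the ubiquitin ligase atrogin-1, rose by 2.26, from 399 to 669.6 counts to 2343 to 2681, and GABARAPL1, an autophagosome protein, by 1.74. TFEB, a regulator of lysosome genes, rose by 1.32, GLUL, glutamine synthetase, by 0.74 and ATG14 by 0.36. TRIM63 was listed at 0 in every shScramble library of 48 h and had 2.30, 3.54 and 422 counts with shFLI1, so shFLI1 48h replicate 3 held nearly all of its counts and no fold is given. The list median of 0.40 is the same to 2 decimals with TRIM63 set against a floor of 3 reads over the control group.

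**Figure D5:**
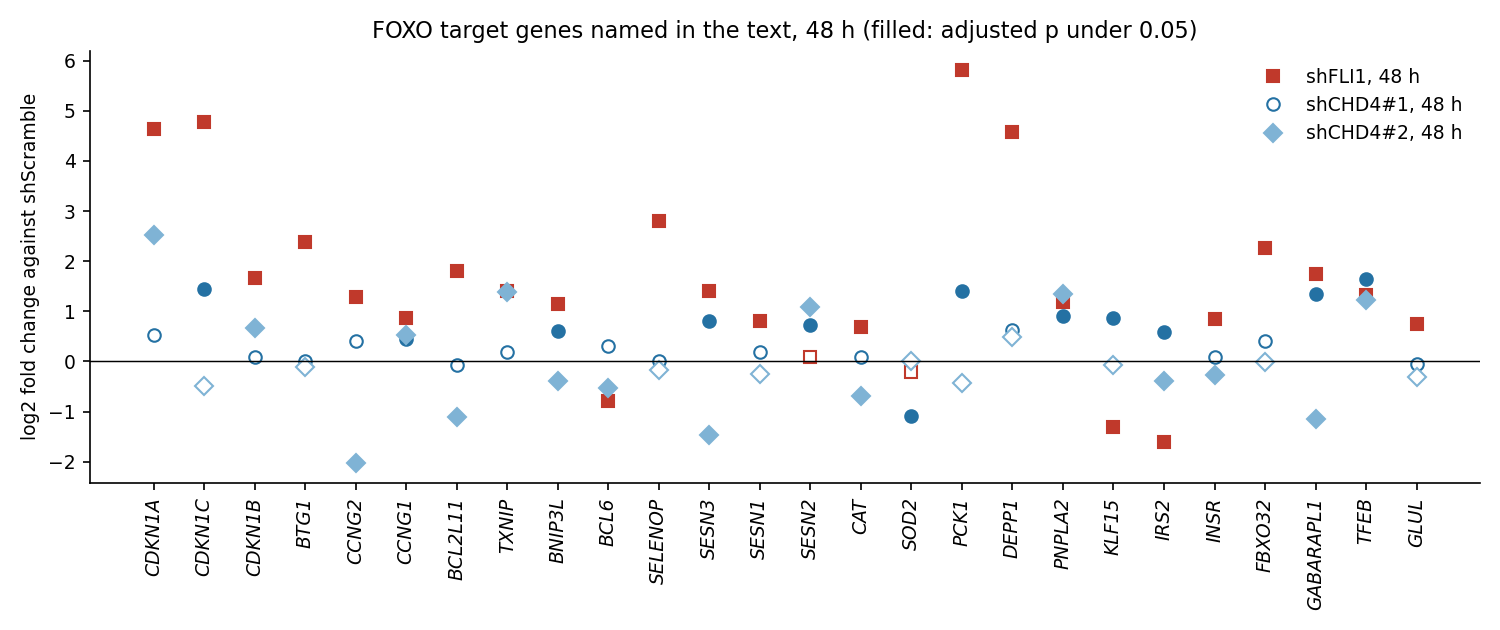
Log2 fold change against shScramble (y axis) of 26 FOXO target genes at 48 h with shFLI1 (squares), shCHD4#1 (circles) and shCHD4#2 (diamonds). Filled symbols have an adjusted p under 0.05. With shFLI1 at 48 h CDKN1A is at 4.63 and PCK1 at 5.81, while BCL6, KLF15 and IRS2 lie below 0.

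Of 6 genes described as repressed through FOXO, 3 fell and 2 rose with shFLI1 at 48 h, or 50 and 33.3 percent beside 31.7 and 32.2 percent of all genes. CCND1, cyclin D1, fell by 5.88, from 6329 to 14571 counts to 155 to 191, and MYC by 3.27. CCND2, cyclin D2, was lower at -1.502. ID1 rose by 2.14 and HIF1A by 0.33. MYC was also the 1 gene of the 6 that fell with both CHD4 hairpins at 48 h, as 6.24 percent of all genes did.

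With CHD4 silenced the 64 target genes were called in both directions. With shCHD4#1 13 rose and 2 fell at 24 h and 17 rose and 8 fell at 48 h. Over all genes 5.21 and 6.14 percent rose and fell at 24 h, and 12.9 and 15.5 percent at 48 h. With a term for library kind the 24 h counts of 13 and 2 became 21 and 6. Without shCHD4#1 24h replicate 2 the 13 became 5. Without shCHD4#1 48h replicate 2 the 17 became 11, and without replicate 3 the 8 became 5. With shCHD4#2 4 rose and 7 fell at 24 h and 13 rose and 18 fell at 48 h, beside 4.05 and 7.01 percent and 17.5 and 20.3 percent of all genes.

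With the replicate number as a block, 4 genes fell with shCHD4#1 and 7 rose with shCHD4#2 at 24 h. With a term for library kind 10 rose with shCHD4#2 at 24 h. The 24 h counts with shCHD4#2 also rested on few libraries. Without its replicate 2 the 4 risen genes became 1, and without shScramble 24h replicate 1 or shCHD4#2 24h replicate 2 or 3 the 7 fallen genes became 4. The counts with shFLI1 and with CHD4 silenced use the same shScramble libraries.

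At 48 h 5 of the 64 targets rose and 3 fell with both CHD4 hairpins, beside the 5 and 6.24 percent of all genes, so these counts stood near the background. PNPLA2 rose by 0.91 with shCHD4#1 and 1.341 with shCHD4#2, and TFEB by 1.65 and 1.23. CCNG1, SESN2 and ATG14 also passed with both, with calls for shCHD4#1 that were lost without its 48h replicate 2 (CCNG1 0.39, adjusted p = 0.0839, and SESN2 0.55, 0.0726) or replicate 1 (ATG14 0.33, 0.0629). PIK3IP1, RBL2 and TRIB1 were the 3 that fell. Other targets had opposite signs. GABARAPL1 rose by 1.338 with shCHD4#1 and fell by 1.16 with shCHD4#2, and SESN3 rose by 0.80 and fell by 1.48. CCNG2 and BCL2L11 fell by 2.03 and 1.11 with shCHD4#2, and CDKN1A rose by 2.53, while with shCHD4#1 these 3 were at 0.41, -0.07 and 0.52 (limma adjusted p from 0.263 to 0.695).

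Across the 6 comparisons with shScramble, the genes with fold changes most like those of each member were listed over 14215 genes with a mean of at least 100. Nearest to FOXO1 by root mean square difference was AL133318.1 (0.079 on the log2 scale), then LPIN2, TANC1, BNC2 and HNMT. Nearest to FOXO3 was LITAF (0.10), then PCDHGA6, PCDHGB3, NAIPP2 and PCDHGA7, and nearest to FOXO4 was CASTOR2 (0.050), with ETNK2, PDCD4 and CREB3L2 among the next. Within 0.2 lay 15 genes for FOXO1, 44 for FOXO3 and 30 for FOXO4. The 6 comparisons share control libraries at each time, and no test is attached to this list.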

How the data were processed

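The deposited values are a signal per gene and library: reads per gene that the authors scaled by a size factor of each library (normalised counts). The submitters' processing notes name GRCh38, the counter featureCounts 1.6.0 and the aligner HISAT2 2.1.0, with DESeq2 1.34.0, SAMtools 1.7 and FastQC 0.11.7 beside them. For strand setting and counting parameters, nothing was given in the sources used here. All values came out as whole reads (100 percent, tolerance 0.02), and the 2 deposited tables of these values agree to a relative 4.98e-07. The log2 fold changes, their errors and the adjusted p-values of the authors' deposited tables were used only where named. The table for shFLI1 at 24 h was not used, since it appears to hold another comparison.

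limma 3.58.1 (R 4.3.3, trend) was fitted to log2(normalised count + 1) for the 21025 genes with a mean of at least 10, with the 4 groups of each time together and all 28 libraries for the change between times. A fold change on this scale understates that of low genes. P-values were adjusted over all genes (Benjamini-Hochberg), and a gene was called at an adjusted p under 0.05. The labels call the samples biological replicates without naming cultures, so p-values measure the spread between these samples. Shares were tested with scipy 1.17.1. Alternatives were pseudocount 5, no filter or a mean of 100, 2 normalisations, edgeR 4.0.16 and DESeq2 1.42.0 on the recovered reads, other sample sets, a replicate block, library kind and leaving out each library. The script was tested on simulated data. With both CHD4 hairpins, every library correlated above 0.1 with the shScramble library of its number (0.119 to 0.548). Some pairs of unlike number but both of the first kind did so too (0.300 for shCHD4#1 24h replicate 2 with shScramble replicate 1). Each first-kind CHD4 library still correlated more with its own number than with the other first-kind shScramble library. For second-kind libraries no other shScramble library of that kind was compared, so pairing by number was not told apart from library kind there. Annotation was GENCODE 29, which held 34232 of the genes in the table. Named genes were FOXO genes, their copies and neighbours, textbook genes, and in each list up to 4 with the largest called shFLI1 changes at 48 h and up to 2 called with both CHD4 hairpins. Some genes that this rule names are not reported here. Members and lists were chosen with earlier results of these data known. Sequences are RefSeq, GRCh38.p14.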

Additional observations from a re-analysis of the deposited data

Results flagged for a closer look

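The shFLI1 response of FOXO1 differed between the times: its log2 fold change was larger at 48 h than at 24 h by 1.06. That of FOXO3 was larger by 0.84. Both differences passed the test of the difference itself in limma. Among the 6 groups of 5 shScramble libraries, 1 for each gene and time, no library stood far enough from the others to be singled out. For FOXO1 and FOXO3 the first-kind shScramble libraries stood above those of the second kind at both times. A search for a single stray library is not made to show such a split. Groups with other hairpins were not searched.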

How the results depend on the processing

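Of 318 alternative values of FOXO comparisons that involve shFLI1, 317 kept their direction and their side of the threshold. The exception was the growth of the FOXO1 response without 1 library, given in the report, whose values ranged from 0.94 to 1.18. The shFLI1 libraries share only a number with shScramble (correlations from -0.150 to 0.045). With the replicate block their values at 24 and 48 h were 1.33 and 2.44 for FOXO1, 0.57 and 1.41 for FOXO3 and 1.10 and 1.31 for FOXO4, all still called.

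The CHD4 values were small and moved more; the cause was not tested. Fits within 1 library kind were chosen after seeing the data, and the second kind has 1 library per CHD4 hairpin, assumed to vary like the other groups. FOXO1 with shCHD4#1 at 24 h turned to -0.18 with the replicate block, -0.12 with library kind, -0.32 in the first kind alone, -0.0049 in edgeR and -0.013 in DESeq2. With shCHD4#2 at 24 h it was -0.075, -0.011 and -0.23 under the first 3 of these. At 48 h the first kind alone gave -0.11 for shCHD4#1 and -0.13 for shCHD4#2, and the second kind alone 0.39 for shCHD4#2, which passed. The replicate block changed no call of a FOXO gene other than that of FOXO4 with shCHD4#1. FOXO3 at 24 h passed with library kind (-0.28 and -0.29).

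FOXO3 with shCHD4#1 at 48 h lost its call with no filter (-0.34), median centring (-0.32), quantile normalisation (-0.26), all 28 libraries (-0.34), only the groups compared (-0.34), the second kind alone (-0.22) and edgeR (-0.33). FOXO4 with shCHD4#1 passed at 24 h with the replicate block (0.53), library kind (0.52), the second kind alone (0.67), edgeR (0.51) and DESeq2 (0.50). At 48 h it passed with a mean of 100 (0.45), median centring (0.47), quantile normalisation (0.48), the replicate block (0.52), all 28 libraries (0.45), library kind (0.51), the second kind alone (0.52), edgeR (0.47) and DESeq2 (0.45). FOXO4 between the hairpins at 24 h was 0.60 and not called with no filter and with only the groups compared, 0.50 and not called in the first kind, and 0.78 in the second. At 48 h the first kind gave 0.81, not called. The change of FOXO4 with shCHD4#1 between times turned to 0.0027 with median centring, 0.027 with quantile normalisation and 0.069 in the first kind.

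With each library left out in turn, FOXO1 ranged from -0.10 to 0.14 and from -0.0195 to 0.34 with shCHD4#1 at 24 and 48 h, and between times from -0.042 to 0.32 with shCHD4#1 and -0.0097 to 0.24 with shCHD4#2. FOXO3 with shCHD4#1 at 48 h ranged from -0.39 to -0.25. FOXO4 ranged from 0.31 to 0.67 and 0.35 to 0.58 with shCHD4#1, from 0.45 to 0.82 between hairpins at 24 h and from -0.43 to -0.13 with shCHD4#2 at 48 h. Between times it ranged from -0.22 to 0.14 and -0.29 to 0.011. Differences of shares, in percentage points, ranged at 24 h for FOXO4 from -0.479 to 1.85 with shFLI1, 3.61 to 9.82 with shCHD4#1 and -1.94 to 1.04 with shCHD4#2, for FOXO1 from -0.871 to 1.40 with shCHD4#1 and for FOXO3 from -4.56 to -1.80 with shCHD4#2. At 48 h they ranged for FOXO4 from 5.80 to 10.3 with shCHD4#1 and -1.68 to 1.87 with shCHD4#2, and for FOXO1 from 6.23 to 9.69 with shCHD4#2.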
